A study of Homo sapiens with 4 samples.

Results

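Chemokines and interleukins are secreted signals. Chemokines bind G protein-coupled receptors and steer the migration of white blood cells, and interleukins act on immune and epithelial cells through several receptor families. Epithelial cells make many of them on stimulation, and the transcription factors NF-kB, AP-1, STAT and IRF act at their promoters. Tuft cells are best known as the epithelial source of the type 2 interleukin IL-25. The 78 ligand genes described here are all gene symbols that name a CXC, CC or CX3C chemokine ligand or an interleukin (14 CXCL, 24 CCL, 1 CX3CL and 39 IL symbols), out of 35979 symbols in the deposited tables. They were chosen by name and receptors were left out.

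The ligand genes were measured in poly(A) RNA of NCI-H1048, a small cell lung cancer line of the tuft cell-like subtype. One library, called the control here, came from cells given a non-targeting guide RNA (gRNA), which the labels call wild type. Another came from cells given a POU2F3 gRNA, labelled POU2F3 knockout. The remaining 2 libraries, labelled COLCA2 knockout, came from cells given COLCA2 gRNA, each with its own guide. POU2F3 is the transcription factor that defines the tuft lineage, and COLCA2 is a co-activator protein that works with it. No library had any further treatment. Whether the edited cells were clones or mixed populations, and how the nuclease was delivered, is not given in the sources used here.

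Libraries held between 21587741 and 29632382 reads assigned to genes. The targeted transcripts were lower in the libraries that carry their names. POU2F3 had a normalized count of 14602 in the control and 1449 with POU2F3 gRNA, and COLCA2 had 5585 there and 3119 and 3541 under COLCA2 gRNA 1 and 2. COLCA2 was lowest with POU2F3 gRNA, at 1393, below both libraries edited for COLCA2. POU2F3 was also lower under the COLCA2 guides, at 3677 and 2351. Of 8 tuft markers, 6 passed the expression minimum (a mean normalized count of at least 20 over the 4 libraries), while TRPM5 and CHAT did not. Of those 6, POU2F3, AVIL, GFI1B, BMX and SOX9 were at least 2-fold lower in all 3 edited libraries, against 1.5% of the genes tested, and the list median of the log2 ratio was -1.68, -2.41 and -3.36 with COLCA2 gRNA 1, COLCA2 gRNA 2 and POU2F3 gRNA. The part of this change in the ligand values was not tested.

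Normalized counts are read counts divided by 1 factor per library. A ratio is given either as a plain fold with a 95% exact (Clopper-Pearson) interval, which covers counting error only, or as a log2 ratio after adding 1 to each count, which understates the change of low genes. A gene counted as changed when it was at least 2-fold from the control, and for COLCA2 when both guides passed. The control and POU2F3 groups held 1 library each, so these are comparisons of libraries without a replicate check. All ratios share the single control library. The SD between the COLCA2 guides (n = 2) is the only measure of spread within a group, and it mixes guide, culture and library differences.

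Of the 78 ligand genes, 24 passed the expression minimum, 5 others reached at least 10 reads in some library, 29 had fewer than 10 reads in every library and 20 were listed at 0 throughout. The 8 genes IL6, CXCL10, CCL2, IL32, CXCL8, IL18, CXCL14 and CCL20 were at least 2-fold higher in all 3 edited libraries, against 4.89% of the 14940 genes tested. All 8 also passed a 4-fold threshold in all 3 libraries, against 1.91% of genes tested. With POU2F3 gRNA alone 8 ligand genes were higher and 2 lower, beside backgrounds of 6.73% and 3.05%. With both COLCA2 guides 8 were higher and 0 lower, beside 5.79% and 2.02%. No ligand gene was lower in all 3 libraries, where the background was 1.5%. IL6, CXCL10, CCL2, IL18 and CCL20 were under 20 in the control and passed the minimum only through the edited libraries, so the count of 8 gives no support of its own. In bulk RNA more cells that express a ligand and more RNA per cell cannot be told apart. Genes with mean counts of 20 to 500 changed more often than the rest, and 7.18% of those 6291 genes were at least 2-fold higher in all 3 libraries. Of the ligand genes, 23 lie in that range, including the 8.

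**Figure D1:**
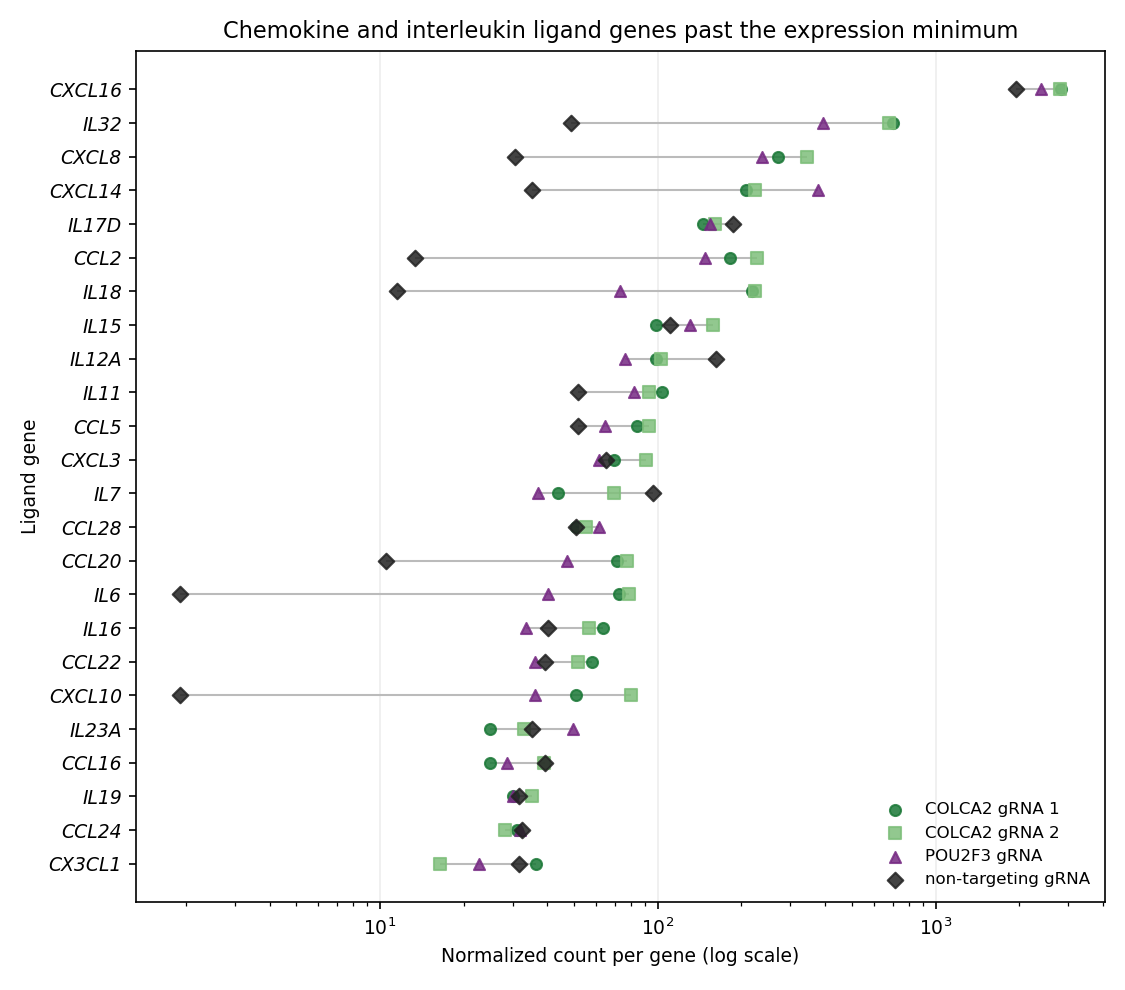
Normalized count (x axis, log scale) of each of the 24 ligand genes past the expression minimum (y axis), with 1 point per library. For 8 genes, from IL32 to CXCL10, the control (black diamond) lies far left of the other 3, while CXCL16 exceeds every other ligand gene in all 4 libraries.

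Apart from the 8 risen genes, IL7 and IL12A, the other 14 stayed within 2-fold of the control in all 3 edited libraries on the log2(count + 1) scale. IL11 among them had a plain fold of 2.01 with COLCA2 gRNA 1. In edgeR's quasi-likelihood test on the recovered reads, 8 ligand genes were higher with POU2F3 gRNA and 9 with COLCA2 gRNA at a Benjamini-Hochberg adjusted p under 0.05. The same test called 8.45% and 11.4% of all genes higher. IL6, CXCL10, CCL2, IL18 and CCL20 are among the called genes and were tested only because they were high in the edited libraries, so nothing is read from the counts of 8 and 9 against these shares. The test called 0 ligand genes lower with either target, beside 3.98% and 7.51% of all genes. Adjusted p-values of the 8 genes ran from 0.000303 for IL32 to 0.0424 for CCL20 with POU2F3 gRNA, and from 7.24e-05 to 0.00900 for the same pair with COLCA2 gRNA. The spread in this test comes from the COLCA2 pair alone, so for POU2F3 it compares 2 libraries and not conditions. For COLCA2 the control side is also a single library, so control variation is not covered.

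Among the neutrophil-attracting chemokines with the amino acid motif glutamate-leucine-arginine, CXCL8 was the most abundant in every edited library and CXCL3 in the control. CXCL8, also called interleukin-8, acts on CXCR1 and CXCR2 and lies on chromosome 4 at 73740506 to 73743716 (GRCh38, plus strand). CXCL8 had a normalized count of 30.6 in the control, 237 with POU2F3 gRNA, and 272 and 343 under COLCA2 gRNA 1 and 2. CXCL8 was thus low only in the control. The fold was 7.75 (95% interval 5.36 to 11.5) with POU2F3 gRNA, 8.89 (6.14 to 13.3) with COLCA2 gRNA 1 and 11.2 (7.79 to 16.7) with gRNA 2. CXCL3, a ligand of the same receptor family on chromosome 4, had 64.9 in the control, 61.3 with POU2F3 gRNA, and 69.5 and 90.6 under the COLCA2 guides, and each fold interval included 1. CXCL1 and CXCL6 were listed at 0 everywhere, CXCL2 had 1 read in all and CXCL5 at most 8. Near-identical copies can exchange reads, and 9.54% of the 31-base words in the annotated CXCL3 transcripts occur in other genes, mainly CXCL2. CXCL8 shares none.

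CXCL10, the interferon-induced ligand of CXCR3 on T cells, was almost silent in the control. It had 2 reads there (normalized count 1.91), against 36.1 with POU2F3 gRNA and 50.8 and 80.0 under COLCA2 gRNA 1 and 2. With so few control reads the fold is loose: 18.9 (95% interval 4.92 to 161) with POU2F3 gRNA, 26.6 (6.98 to 226) with gRNA 1 and 41.9 (11.2 to 353) with gRNA 2. CXCL11, a neighbour on chromosome 4 with the same receptor, had 1 read in the control, 6 with POU2F3 gRNA, and 11 and 4 under the COLCA2 guides. CXCL9, the remaining ligand of that receptor, had at most 2 reads.

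CXCL14, an epithelial chemokine on chromosome 5 at 135570679 to 135579279 (minus strand), had a normalized count of 35.3 in the control, 377 with POU2F3 gRNA, and 208 and 223 under COLCA2 gRNA 1 and 2. It was highest with POU2F3 gRNA, unlike the other 7 risen genes. The fold was 10.7 (95% interval 7.62 to 15.3) with POU2F3 gRNA, 5.90 (4.14 to 8.62) with gRNA 1 and 6.32 (4.43 to 9.26) with gRNA 2. CXCL16, a membrane-bound ligand of CXCR6, was the most abundant ligand gene, with 1940 in the control, 2401 with POU2F3 gRNA, and 2821 and 2804 under the COLCA2 guides. Its difference was small and below the 2-fold threshold. The mean log2 ratio was 0.54 ± 0.0063 (SD, n = 2) for COLCA2, and the log2 ratio was 0.31 for POU2F3. That SD is between the guides only and leaves out variation of the shared control. The fold of CXCL16 was 1.45 (95% interval 1.37 to 1.54) with COLCA2 gRNA 1 and 1.44 (1.36 to 1.53) with gRNA 2. CXCL16 was the ninth gene that edgeR called for COLCA2 (adjusted p = 0.0101), and its adjusted p was 0.110 for POU2F3. CX3CL1, the membrane-bound fractalkine, had 31.5, 22.7, 36.3 and 16.5 in the control, POU2F3, COLCA2 gRNA 1 and COLCA2 gRNA 2 libraries. It was the only ligand gene past the minimum whose guides differed at least 2-fold, against 2.22% of genes tested.

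**Figure D2:**
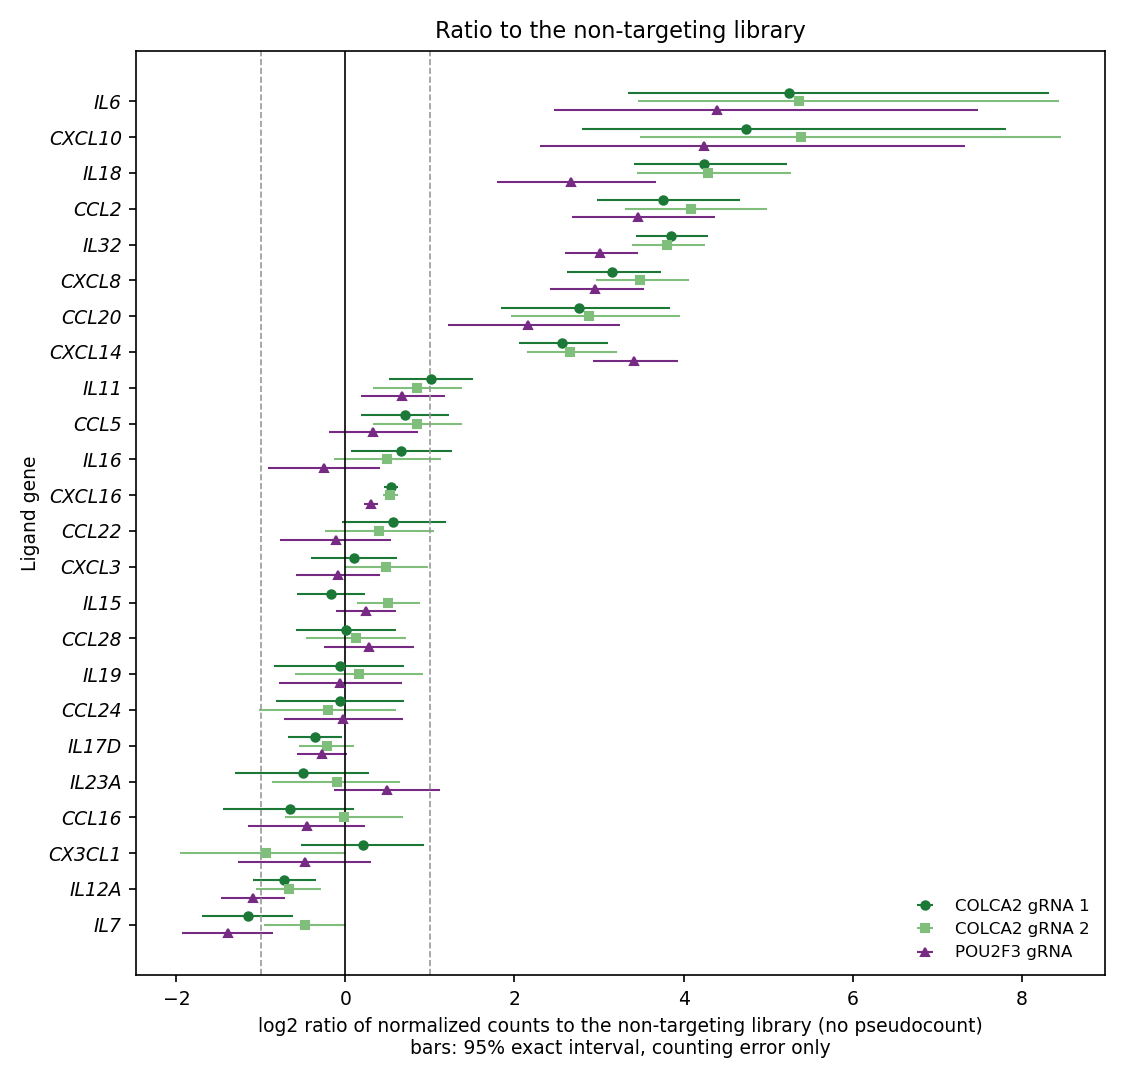
log2 ratio of normalized counts to the control, without a pseudocount (x axis), for the 24 ligand genes past the minimum (y axis). Points are the 3 edited libraries, bars are 95% exact intervals for counting error, and dashed lines mark 2-fold. The intervals of the uppermost 8 genes lie right of the 2-fold line in every library, and IL7 and IL12A are the lowest with POU2F3 gRNA.

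In the CC family, 7 of 24 genes passed the minimum. Of the 7, 2 (CCL2 and CCL20) were at least 2-fold higher in all 3 edited libraries, beside 4.89% of all genes tested. Both were under 20 in the control and passed the minimum only through the edited libraries, so this count gives no support of its own. CCL2, also called MCP-1, draws monocytes through CCR2 and lies on chromosome 17 at 34255218 to 34257203. CCL2 had a normalized count of 13.4 in the control, 148 with POU2F3 gRNA, and 181 and 227 under COLCA2 gRNA 1 and 2. The fold of CCL2 was 11 (95% interval 6.41 to 20.6), 13.6 (7.88 to 25.3) and 17 (9.88 to 31.6) in that order. CCL20, the ligand of CCR6 that mucosal epithelium releases, had 10.5 in the control, 47.0 with POU2F3 gRNA, and 71.5 and 77.6 under the COLCA2 guides. Its folds were 4.47 (2.32 to 9.47), 6.81 (3.58 to 14.3) and 7.39 (3.87 to 15.5). In both genes the control stands apart from the other 3, and POU2F3 gRNA is lower than either COLCA2 guide.

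The other CC genes past the minimum showed no 2-fold difference. CCL5 (RANTES) had 51.6 in the control, 64.6 with POU2F3 gRNA, and 84.0 and 92.9 under COLCA2 gRNA 1 and 2. In COLCA2 gRNA 2, 20 of its 79 reads lay on a second annotated copy that was at 0 in the other libraries. CCL22 had log2 ratios of 0.56 and 0.39 under the COLCA2 guides and -0.11 with POU2F3 gRNA. CCL16, CCL24 and CCL28 had counts between 24.9 and 61.3 in every library. CCL16 reads moved between 2 annotated copies, and its summed value is used here. CCL3, CCL4 and CCL7, which like CCL2 are inflammatory CC chemokines, had at most 6 reads in any library.

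In the interleukin-1 family, IL18 was the 1 member past the minimum. IL18 is made as a precursor that caspase-1 cleaves, and it acts on T and NK cells. Its normalized count was 11.5 in the control, 73.0 with POU2F3 gRNA, and 218 and 225 under COLCA2 gRNA 1 and 2. The libraries fall on 3 levels, with POU2F3 gRNA between the control and the COLCA2 guides. The fold over the control was 6.37 (95% interval 3.47 to 12.8), 19.0 (10.6 to 37.4) and 19.6 (11 to 38.6). IL1A and IL1B, the alarm cytokines of the family, had at most 3 reads, and IL33 and IL36G at most 6. CASP1, which encodes the cleaving enzyme, had 4.77 in the control, 57.1 with POU2F3 gRNA, and 174 and 148 under the COLCA2 guides. Of 11 interleukin-1 processing genes 6 passed the minimum, and CASP1 was the 1 past 2-fold in all 3 edited libraries, beside 4.89% of all genes tested. With 5 reads in the control, CASP1 passed the minimum only through the edited libraries, so this count gives no support of its own. PYCARD, GSDMD and CASP4 had log2 ratios between -0.31 and 0.28.

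IL6, a fever and acute-phase cytokine that signals through IL6ST (gp130), lies on chromosome 7 at 22725884 to 22732002. It had 2 reads in the control (normalized count 1.91), 40.3 with POU2F3 gRNA, and 72.6 and 78.8 under COLCA2 gRNA 1 and 2. As for CXCL10, the control is close to 0, and the folds were 21.1 (95% interval 5.53 to 179), 38.0 (10.1 to 320) and 41.3 (11 to 348). The antisense gene AC073072.1 covers 20.7% of the IL6 exon bases, and whether counting used the strand is not given in the sources used here. IL11, another ligand of the gp130 family, had 51.6, 82.3, 104 and 92.9 in the control, POU2F3, COLCA2 gRNA 1 and COLCA2 gRNA 2 libraries. Its mean log2 ratio under the COLCA2 guides was 0.92 ± 0.11 (SD, n = 2), under the 2-fold threshold. IL12A, the p35 subunit that pairs with IL12B or EBI3, went the other way. It had 162 in the control, 76.4 with POU2F3 gRNA, and 98.5 and 102 under the COLCA2 guides, a fold of 0.471 (0.361 to 0.610) for POU2F3. The partner IL12B had at most 2 reads. IL23A had 35.3, 49.5, 24.9 and 32.9 in the same order as IL11.

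IL32 was the second most abundant ligand gene in the edited libraries. It is a human cytokine induced by NF-kB and interferon signals, and lies on chromosome 16 at 3065297 to 3082192. The normalized count of IL32 was 48.7 in the control, 393 with POU2F3 gRNA, and 701 and 681 under COLCA2 gRNA 1 and 2. The guides gave nearly the same value and both exceed POU2F3 gRNA. Folds were 8.07 (95% interval 6.03 to 11), 14.4 (10.8 to 19.5) and 14 (10.5 to 19.0). IL16 had log2 ratios of 0.64 and 0.48 under the COLCA2 guides and -0.25 with POU2F3 gRNA. The opposite-strand gene STARD5 covers 36.0% of the IL16 exon bases and had 126 in the control and 182 to 187 in the others, so IL16 reads are uncertain. IL34 had at most 7 reads.

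Neither lymphocyte growth factor of the gamma-chain group that passed the minimum was 2-fold higher. IL7, a growth factor for lymphocyte precursors made by epithelium and stroma, had 96.4 in the control, 36.9 with POU2F3 gRNA, and 43.5 and 69.4 under COLCA2 gRNA 1 and 2. It was highest in the control. Its fold was 0.383 (95% interval 0.262 to 0.551) with POU2F3 gRNA, 0.451 (0.307 to 0.653) with gRNA 1 and 0.719 (0.513 to 1.002) with gRNA 2, so COLCA2 gRNA 2 did not reach 2-fold. The opposite-strand genes ZC2HC1A and AC083837.2 cover 9.49% and 6.81% of the IL7 exon bases. ZC2HC1A had 492 in the control, 457 with POU2F3 gRNA, and 337 and 362 under the COLCA2 guides. Its part in the IL7 reads was not tested. The edgeR adjusted p of IL7 was 0.131 for POU2F3 and 0.243 for COLCA2, and that of IL12A was 0.0868 and 0.138. IL15, which sustains NK cells, had 111 in the control, 131 with POU2F3 gRNA, and 98.5 and 158 under the COLCA2 guides, which lie on either side of the control. The type 2 interleukins IL4 and IL5 had at most 2 reads, and IL13 had 11 or 12 reads in every library.

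Of the interleukin-17 family only IL17D passed the minimum, with 186 in the control, 154 with POU2F3 gRNA, and 145 and 160 under COLCA2 gRNA 1 and 2. An antisense gene covers 39.0% of its exon bases. IL25, the tuft cell interleukin, had 2 reads with COLCA2 gRNA 1 and was listed at 0 in the other 3 libraries, including the control. In the interleukin-10 family IL19 stayed between 30.1 and 35.3, and IL24 had 1 read in the control, 4 with POU2F3 gRNA, and 8 and 14 under the COLCA2 guides. IL10 had 12 to 19 reads per library. CCL27 had 10 to 17 reads, and 91.9% of its 31-base words also occur in another annotated gene.

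Summed over all 78 genes, the normalized count was 3185 in the control, 4726 with POU2F3 gRNA, and 5648 and 5938 under COLCA2 gRNA 1 and 2. CXCL16 made up 60.9% of the sum in the control and between 47.2% and 50.8% in the others. The 8 risen genes made up 4.83% in the control, 28.6% with POU2F3 gRNA, and 31.4% and 32.6% under the COLCA2 guides. These shares describe genes that were grouped by their rise. The ligand genes together took between 0.0131% and 0.0234% of the library totals. Per kilobase of the longest annotated transcript, CXCL16 led in the control with a normalized count of 873 per kb, followed by IL17D with 100.1 and IL12A with 85, while IL32 had 35.3. With COLCA2 gRNA 1 the order was CXCL16 (1270 per kb), IL32 (507), CCL2 (182) and CXCL8 (159), and CCL2 and CXCL8 lay close together with gRNA 2 as well (228 and 201). With POU2F3 gRNA it was CXCL16 (1081 per kb), IL32 (284), CXCL14 (191), CCL2 (148) and CXCL8 (139).

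**Figure D3:**
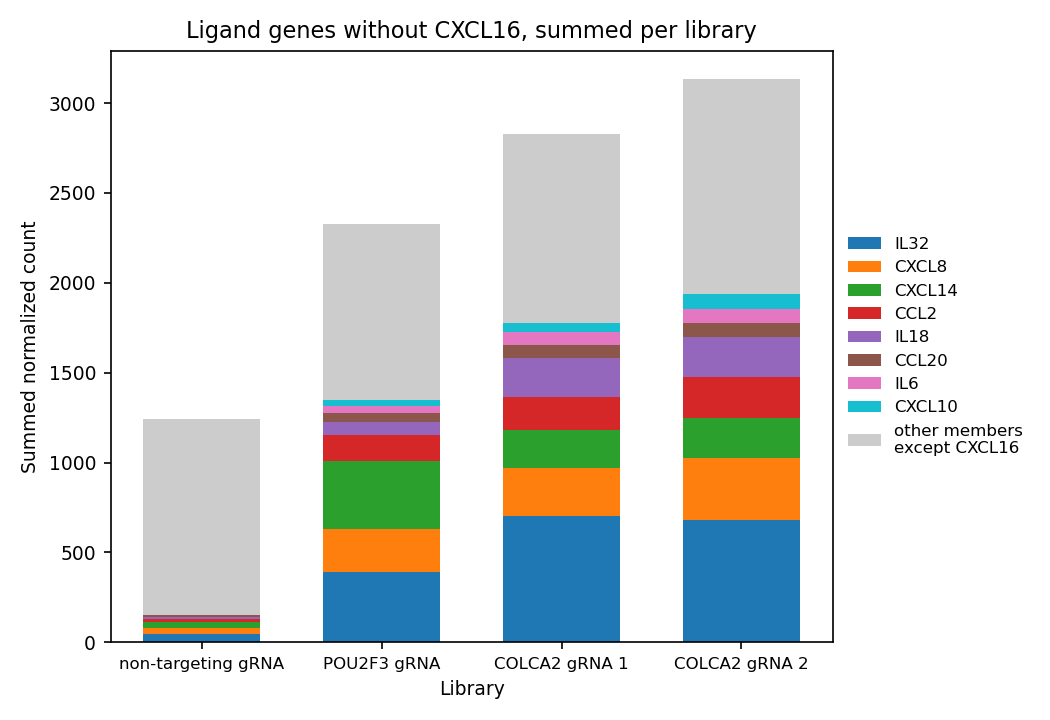
Summed normalized count (y axis) of the 77 ligand genes other than CXCL16 in each library (x axis), stacked by gene. The sum rises from 1244 in the control to between 2325 and 3134 in the others, and the colored segments of the 8 risen genes grow while the pale gray segment of the remaining genes changes little.

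Compared directly, the POU2F3 and COLCA2 libraries differed most at IL18. It had 73.0 with POU2F3 gRNA against 218 and 225, folds of 0.335 (95% interval 0.258 to 0.433) and 0.325 (0.249 to 0.421) over COLCA2 gRNA 1 and 2. IL18 was the 1 ligand gene at least 2-fold lower with POU2F3 gRNA than with both guides, against 0.924% of genes tested, and 0 were higher, against 0.442%. In edgeR this difference of IL18 had an adjusted p of 0.0933 and an unadjusted p of 0.0009. IL32 was 0.560-fold and 0.577-fold of the guides, with intervals below 1, and CXCL14 was 1.81-fold and 1.69-fold, with intervals above 1. Of the 8 risen genes, 7 had a smaller log2 ratio with POU2F3 gRNA than the COLCA2 guides had on average. Over all genes tested, 49.4% had a larger ratio with POU2F3 gRNA than that average. IL6, CXCL10, CCL2, IL18 and CCL20 passed the minimum only through the edited libraries, and POU2F3 gRNA has 1 library. The count of 7 therefore gives no support of its own. The guides themselves were close, with a median absolute log2 difference of 0.16 over the 24 genes and 0.13 over all genes tested.

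Promoter sequence was looked at because the 8 genes moved together and because NF-kB and AP-1 sites are known at several of them. RefSeq promoter entries (GRCh38.p14) matched 16 of the 24 genes, 6 of them among the 8 (IL6, CXCL10, IL32, CXCL8, CXCL14 and CCL20). The 250 bases before each start were searched on both strands for GGGNNTTCC, a partial NF-kB pattern, for TGACTCA, the AP-1 pattern, for ATGCAAAT, the octamer that POU2F3-class proteins recognise, and for the 10-letter NF-kB consensus. The last was added after the sequences were seen, and can overlap GGGNNTTCC. It was found in 4 of the 6 genes and in 5 of the 10 other ligand genes with an entry, against 6.28% of the 27305 genes in the table and 8.32% of the 11171 past the expression minimum. GGGNNTTCC was found in 2 of the 6 and 2 of the 10, against 7.01% of all genes in the table and 9.60% of those past the minimum. TGACTCA was found in 2 and 4 (5.19% and 4.33%), and ATGCAAAT in 0 and 1 (2.03% and 1.90%). Matches were thus not limited to genes that rose: the CXCL3 window holds the consensus too. A match is a description of letters, not evidence of binding. The starts are those of the promoter entries, and several windows overlap gene bodies annotated in GENCODE 29. Exons of coding genes covered all 250 bases of the CXCL14 window, 118 in CXCL3 and 106 in the IL32 window with the matches. They covered 63 in CXCL8, 53 in IL6, 20 in CCL20 and 0 in CXCL10. The matches printed for IL6, IL32, CCL20, CXCL3 and CXCL14 lie inside the annotated gene.

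The consensus matches are shown in capitals with 10 bases on each side, in the direction of transcription. They begin 73 bases before the start in IL6 (chr7:22727117-22727146), 177 and 122 in CXCL10 (chr4:76023655-76023684 and chr4:76023600-76023629, minus strand), 99 in IL32 (chr16:3065294-3065323) and 79 in CCL20 (chr2:227813753-227813782, where the match reads on the opposite strand). CXCL3, whose fold intervals included 1, is shown for comparison, with its match 79 bases before the start (chr4:74038749-74038778, minus strand).
IL6: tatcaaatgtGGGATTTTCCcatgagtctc
CXCL10, first: gaggagcagaGGGAAATTCCgtaacttgga
CXCL10, second: tctgcaacatGGGACTTCCCcaggaacagc
IL32: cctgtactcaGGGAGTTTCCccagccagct
CCL20: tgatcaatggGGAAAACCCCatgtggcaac
CXCL3: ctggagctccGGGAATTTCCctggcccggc

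The CXCL8 and CXCL14 windows hold the AP-1 pattern and no consensus match, 137 bases before the start in CXCL8 (chr4:73740422-73740448, plus strand) and 92 in CXCL14 (chr5:135579067-135579093, minus strand, where the match reads on the opposite strand). The search took exact matches only, so a missing match does not mean that no NF-kB site is present. Capitals mark the pattern.
CXCL8: ggaagtgtgaTGACTCAggtttgccct
CXCL14: gaaatctcagTGAGTCAccgagtggtt
The whole 250 bases before CXCL10 (chr4:76023498-76023747, minus strand) are shown because they lie outside the exons of coding genes and carry both NF-kB consensus matches, in capitals.
CXCL10: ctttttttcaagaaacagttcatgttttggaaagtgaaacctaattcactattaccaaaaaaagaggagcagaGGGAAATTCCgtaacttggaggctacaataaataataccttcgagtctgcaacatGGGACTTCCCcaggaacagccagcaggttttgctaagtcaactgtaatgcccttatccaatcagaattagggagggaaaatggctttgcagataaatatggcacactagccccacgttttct

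Genes of the same pathways came from lists written with earlier results of these data known. Of 24 NF-kB pathway genes, all passed the minimum, 9 were at least 2-fold higher in all 3 edited libraries and 0 were lower, beside 4.89% and 1.5% of all genes tested. The median log2 ratio was 0.69 with the mean of the COLCA2 guides and 0.51 with POU2F3 gRNA. The 5 with the largest smallest change were TRAF1, ICAM1, TNFAIP3, NFKBIZ and MAP3K14. TRAF1, an adaptor of TNF receptors, had a normalized count of 10.5 in the control, 83.9 with POU2F3 gRNA, and 141 and 143 under COLCA2 gRNA 1 and 2. TRAF1 thus passed the minimum only through the edited libraries, and its place in the count of 9 gives no support. TNFAIP3 (A20), a feedback inhibitor of NF-kB, had 375, 1627, 1716 and 1799 in that order, and NFKBIZ, a nuclear cofactor, had 230, 836, 881 and 876. ICAM1, a leukocyte adhesion molecule, had log2 ratios of 2.12 with POU2F3 gRNA and 2.44 and 2.73 under the COLCA2 guides, and MAP3K14, the kinase of the non-canonical arm, had 1.30, 1.51 and 1.70. Among the subunits, RELB was past 2-fold in all 3 edited libraries, with 379 in the control, 815 with POU2F3 gRNA, and 1101 and 1103 under COLCA2 gRNA 1 and 2. NFKB2 had log2 ratios of 0.55, 0.85 and 0.93 in that order, and those of RELA, REL and NFKB1 lay between -0.18 and 0.49.

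Among 35 other cytokine ligands and soluble inhibitors, 17 passed the minimum and 5 were higher in all 3 libraries, beside 4.89% of all genes tested: LIF, LTB, CSF1, TNF and CTF1. LTB and TNF were under 20 in the control and passed the minimum only through the edited libraries. LIF, a gp130 ligand, had 147 in the control, 1202 with POU2F3 gRNA, and 1717 and 1853 under COLCA2 gRNA 1 and 2. CSF1, the macrophage growth factor, had 247, 845, 1026 and 1049, and TNF had 18.1, 95.7, 58.1 and 72.9. LTB and CTF1 had at most 76.7. TSLP, an epithelial type 2 cytokine, was at least 2-fold lower with POU2F3 gRNA (log2 ratio -1.27) and with COLCA2 gRNA 1 (-1.45), but not with gRNA 2 (-0.71). Their median log2 ratio came to 0.75 with the mean of the COLCA2 guides and 0.26 with POU2F3 gRNA.

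Receptors for these ligands were read against the same 4.89% of all genes. Of 41 interleukin receptor genes 27 passed the minimum and 1, IL1R1, was higher in all 3 libraries, with 416 in the control, 1285 with POU2F3 gRNA, and 1059 and 1292 under COLCA2 gRNA 1 and 2. The list's median log2 ratio was 0.07 with COLCA2 and 0.0013 with POU2F3. IL6ST, the signal subunit for IL6, IL11 and LIF, had log2 ratios of 1.68 with POU2F3 gRNA and 0.98 and 1.71 under the COLCA2 guides. IL18R1, the receptor of IL18, had 251, 108, 145 and 215 in the same order as IL1R1. Of 22 chemokine receptor genes 7 passed and 2 were higher in all 3 libraries, with a list median of -0.27 with COLCA2 and -0.09 with POU2F3. ACKR3, a scavenging receptor of CXCL12, had 3.82 in the control, 126 with POU2F3 gRNA, and 70.5 and 69.4 under the COLCA2 guides. ACKR3 passed the minimum only through the edited libraries, so the count of 2 gives no support of its own. CXCR4, the signalling receptor of CXCL12, had 46.8, 274, 154 and 178, while CXCL12 itself had at most 2 reads. ACKR1, a decoy receptor for several inflammatory chemokines, was lower, with 159 in the control, 41.1 with POU2F3 gRNA, and 92.3 and 77.6 under the COLCA2 guides.

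**Figure D4:**
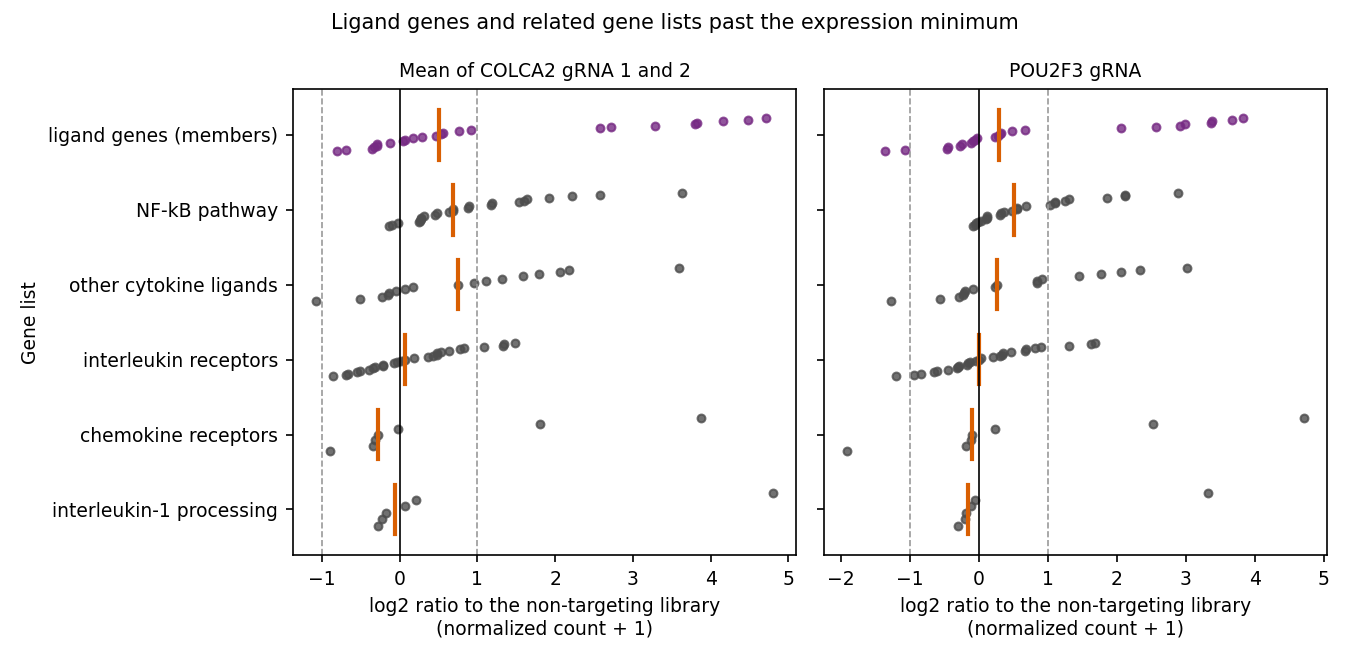
log2 ratio to the control on the normalized count + 1 scale (x axes) for each gene past the minimum, by list (y axis), with the mean of the COLCA2 guides on the left and POU2F3 gRNA on the right. Orange bars are list medians and dashed lines mark 2-fold. The ligand genes form a main body near 0 and a separate group of 8 above 2.

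Markers of other cells were read beside these results. White blood cell markers stayed low: CD3D and CD3E were listed at 0 in all 4 libraries, PTPRC had between 8.29 and 16.2, and the summed level of the 12 markers was 221 in the control and 299 to 349 in the others. CD68, also a lysosomal gene of other cells, made up the largest part in the edited libraries, and ITGAM was listed at 0 in the control and had 13.4 to 33.2 in the others. Of 7 fibroblast markers 6 passed the minimum, LUM only through the edited libraries (14.3 in the control). COL3A1, LUM and PDGFRB were at least 2-fold higher in all 3 edited libraries, beside 4.89% of all genes tested. The list's sum went from 1391 to between 1798 and 2185. COL1A1, the most abundant fibroblast marker, had log2 ratios of 0.06 and -0.17 under the COLCA2 guides and -0.18 with POU2F3 gRNA, and PDGFRA had -0.17, -0.61 and 0.78. Among 4 epithelial markers KRT8, KRT18 and CDH1 were higher in all 3, beside the same 4.89%, while EPCAM was not. The part of these shifts in the ligand values was not tested.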

How the data were processed

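Poly(A) RNA libraries were made with the NEBNext Ultra II RNA kit, per the labels' protocols. The submitters' processing notes name Salmon, DESeq2 and the build hg38, without roles or versions. The deposited signal per gene is a normalized count, per the file headers. Every value proved to be a whole number of steps (100%, tolerance 1e-06), with 1 step size per library, so reads were recovered by dividing by it. They may be rounded Salmon estimates, which can split reads between similar genes. Rows sharing a symbol were summed (11 extra rows for 8 ligand genes).

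Genes with a mean of at least 20 were kept (14940). Ratios used a pseudocount of 1 and a 2-fold threshold without a test. The edgeR 4.0.16 quasi-likelihood test (3 groups, TMM, Benjamini-Hochberg over all genes, R 4.3.3) on the recovered reads was an alternative. It called 1263 genes higher and 595 lower for POU2F3, and 1709 and 1122 for COLCA2. The 10-letter motif and the count of shared 31-base words were added after the data were seen. Only the 2-fold rule in all 3 edited libraries and the edgeR test for COLCA2 were tried on simulated counts. The other steps were not. Positions, lengths and overlaps come from GENCODE 29 (GRCh38, the files' build) by gene identifier, for all 78 symbols. Genes past the minimum are named with values, and those with at least 10 reads with reads. From each list, the 5 genes with the largest smallest change among those past 2-fold in all 3 libraries are named, and others were named after their values were seen. The members and lists were chosen with earlier results of these data known. P-values rest on the spread within the COLCA2 pair alone (1 residual degree of freedom), and no spread of the control or POU2F3 group enters them.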

Additional observations from a re-analysis of the deposited data

How the results depend on the processing

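No paired analysis was possible because POU2F3 gRNA and the control have 1 library each. The same 8 genes were higher with POU2F3 gRNA and with both COLCA2 guides under other pseudocounts (0.1 and 10), equal totals, TMM scaling, the highest row per symbol, a 4-fold threshold and with either COLCA2 guide left out. The median log2 ratio over all genes was lowest at -0.08, for COLCA2 with equal totals. Without an expression minimum, 14 ligand genes were higher with POU2F3 gRNA and 14 with both COLCA2 guides, beside 7.09% and 5.16% of 35979 genes. Of the ligand genes, 5 were lower with POU2F3 gRNA and 8 were apart between the targets. With a minimum of 100, only 9 ligand genes were tested and 1 was lower with POU2F3 gRNA. Higher in each comparison were 5, beside 5.19% (POU2F3) and 4.77% (COLCA2) of 12159 genes. These 5 (CCL2, CXCL14, CXCL8, IL18 and IL32) were all under 100 in the control. They passed only through the edited libraries, so the count gives no support of its own.

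The genes lower with POU2F3 gRNA (IL7 and IL12A) numbered 1 with a pseudocount of 10, 0 at 4-fold and 0 in edgeR. Genes lower with both COLCA2 guides numbered 1 at 1.5-fold (IL12A) and between 0 and 1 with a guide left out (IL7 without gRNA 2). Genes apart between the targets numbered 6 at 1.5-fold, 0 at 4-fold, 0 in edgeR, and 1 to 2 with a guide left out (CXCL10 joined IL18 without gRNA 1). The causes were not tested. No ratio of a called gene changed sign. Depth limits IL6 and CXCL10 most, with 2 control reads each. Over all genes, 1005 were higher and 455 lower for POU2F3, and 865 and 302 for COLCA2. These counts became 2551, 1639, 1857 and 1028 without a minimum, 631, 233, 580 and 177 with a minimum of 100, 1822, 1149, 1451 and 901 at 1.5-fold, 365, 113, 346 and 44 at 4-fold, and 1263, 595, 1709 and 1122 in edgeR. Leaving out gRNA 1 gave 1083 and 544 for COLCA2, and leaving out gRNA 2 gave 962 and 477.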

Other observations

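IL18 lies on chromosome 11 at 112143251 to 112164117 (GRCh38, minus strand), 0.835 Mb from COLCA2 and 8.07 Mb from POU2F3. It was the risen ligand gene with the widest gap between the COLCA2 and POU2F3 libraries. IL18 is also the only one of the 78 ligand genes on the chromosome that carries both targets. No other ligand gene there is available for comparison. Whether the position bears on its level was not tested.

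Among genes below the expression minimum, IL24 and CXCL11 had 1 read each in the non-targeting library. The fold of IL24 was 8.69 (95% interval 1.16 to 385) with COLCA2 gRNA 1, 17.2 (2.62 to 729) with gRNA 2 and 3.52 (0.348 to 173) with POU2F3 gRNA. For CXCL11 it was 11.9 (1.74 to 514), 4.93 (0.487 to 243) and 5.27 (0.640 to 243), so only COLCA2 gRNA 1 gave an interval above 1.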
